A study of Mus musculus with 8 samples.

Results

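Arg1, Nos2, Arg2 and Odc1 encode the enzymes at the branch point of arginine use in the macrophage, and their RNA was followed in bone marrow-derived macrophages of C57BL/6 mice. The 4 genes were found as the loci of the authors' merged mm9 annotation that hold a coding reference transcript at the known mm9 positions of these genes, and each position gave a single locus, 4 of 31020 loci in all. Cells exposed to interleukin-4 (IL-4) gave 4 libraries, and untreated cells gave 4, numbered 1 to 4 in each group. The sources used here state neither the dose and duration of IL-4 nor the age and sex of the mice. The series design calls the samples biological replicates without naming separate animals, so the p-values speak only of the spread among these 8 libraries. Total RNA was depleted of ribosomal RNA before sequencing.

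Arginine is a substrate that several enzymes compete for. Arginases split it into ornithine and urea: arginase 1 in the cytosol and arginase 2 in mitochondria. The inducible nitric oxide synthase, the product of Nos2, instead oxidises arginine to citrulline and nitric oxide, a reaction known from macrophages exposed to interferon-gamma or bacterial products. Ornithine decarboxylase, the product of Odc1, takes ornithine on to putrescine, the first polyamine. In mouse macrophages Arg1 is a textbook target of IL-4 and of the transcription factor STAT6, and the balance of Arg1 to Nos2 is widely used to tell alternatively from classically activated cells.

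The files name loci by their own IDs and by UCSC transcript identifiers, 0 of which occur in the gene tables at hand. The gene names above therefore rest on position. For the same reason further genes of arginine transport and polyamine synthesis, and markers of macrophages or of other cell types, could not be looked up, and the labelled cell type was not checked. In bulk RNA, fewer cells with a transcript and less of it per cell cannot be told apart. Library totals ran from 23969227 to 27783417 counts with IL-4 and from 23071022 to 26682884 counts in untreated cells. The 2 libraries numbered 4 carried 5525 (IL-4) and 5808 (untreated) chromosome Y counts, against at most 7 in any other library, and each gene was also fitted without both. Without them the log2 fold change was 6.53 for Arg1, 0.47 for Odc1, 4.66 for Nos2 and 0.52 for Arg2, against 6.36, 0.50, 4.87 and 0.07 with all libraries, and no call changed (edgeR, adjusted p = 9.053e-08, 0.001355, 0.03242 and 0.4134 without them; the fits of Nos2 and Arg2 used no filter, as explained with their values).

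With IL-4, Arg1 rose about 82-fold and Odc1 about 1.4-fold, while Arg2 had a handful of reads in both groups and Nos2 reached a few reads in treated cells only. Levels are given as CPM, the count of a locus divided by the total count of its library and multiplied by 1000000. The fold changes and their errors come from edgeR's quasi-likelihood test over all loci that pass its expression filter, with libraries scaled by TMM factors and p-values adjusted over those 13761 loci by the Benjamini-Hochberg method at a threshold of 0.05. Of these loci, 25.6% passed the test with higher counts after IL-4. Arg1 and Odc1, the 2 members that the filter kept, both did, so the call alone sets neither of them apart from the many other loci that rose.

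**Figure D1:**
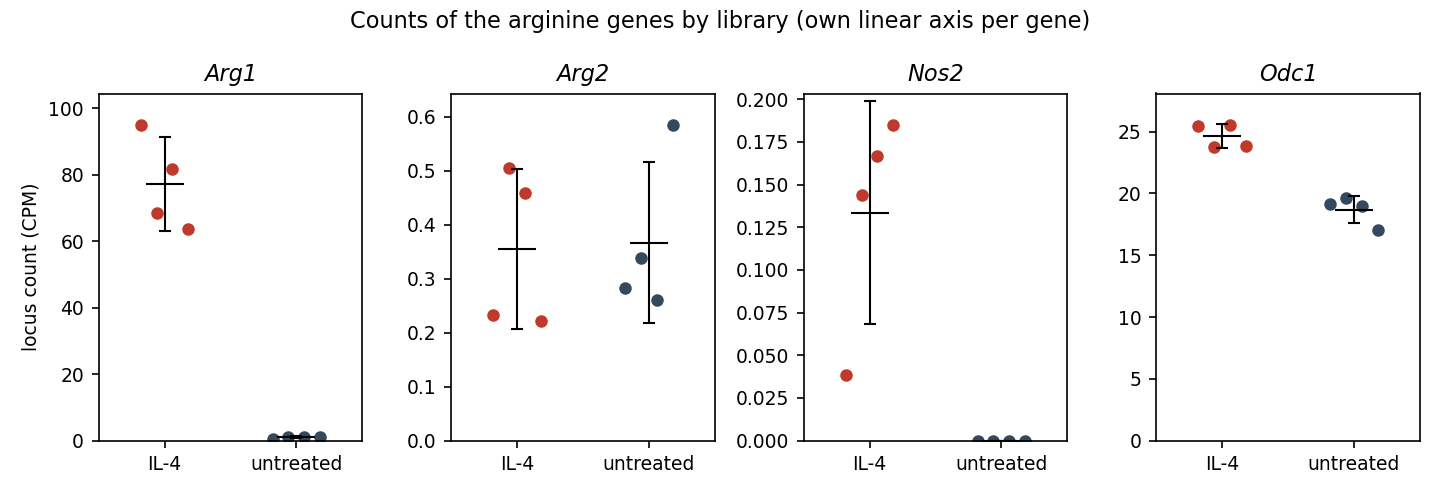
Locus counts of the 4 genes as CPM (linear axes from 0, a separate scale for each gene) in the 4 IL-4 and 4 untreated libraries. Points are libraries and the black marks are the mean and SD. The groups are apart for Arg1, Nos2 and Odc1 and overlap for Arg2, and the Nos2 axis ends near 0.2 CPM. Groups were apart with IL-4 higher at 14.5% of the 21080 loci with any count.

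Arg1 lies on the minus strand of chromosome 10 (24633499 to 24647675, mm9) at locus XLOC_002500, reference transcript uc007erg.2, and shares no exonic base with another locus. It had 2454, 1904, 1957 and 1721 counts in IL-4 replicates 1 to 4, against 16, 30, 24 and 29 counts in untreated replicates 1 to 4. The groups did not overlap, and the lowest IL-4 library held more than 50 times the counts of the highest untreated one. As levels these were 95.0, 68.5, 81.6 and 63.6 CPM with IL-4, against 0.645, 1.12, 1.04 and 1.21 CPM in untreated cells. The means were 77.2 ± 14.1 CPM with IL-4 and 1.01 ± 0.250 CPM untreated (SD, n = 4 each).

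Arg1 rose by 6.36 on the log2 scale (SE 0.18; adjusted p = 1.663e-09, edgeR), an 82.1-fold rise with a 95% interval of 62.4 to 108.2. Of the 13761 tested loci, 79 had a larger log2 fold change, which puts Arg1 at rank 80. Among the 10797 protein-coding loci tested it was at rank 53. In level it moved past most of the transcriptome: the mean CPM of Arg1 was above that of 81.7% of tested loci in IL-4 libraries and above that of 14.5% in untreated libraries. The CPM of Arg1 varied among IL-4 libraries with a coefficient of variation of 18.2%, while that of Odc1 in the same libraries was 4.03%.

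**Figure D2:**
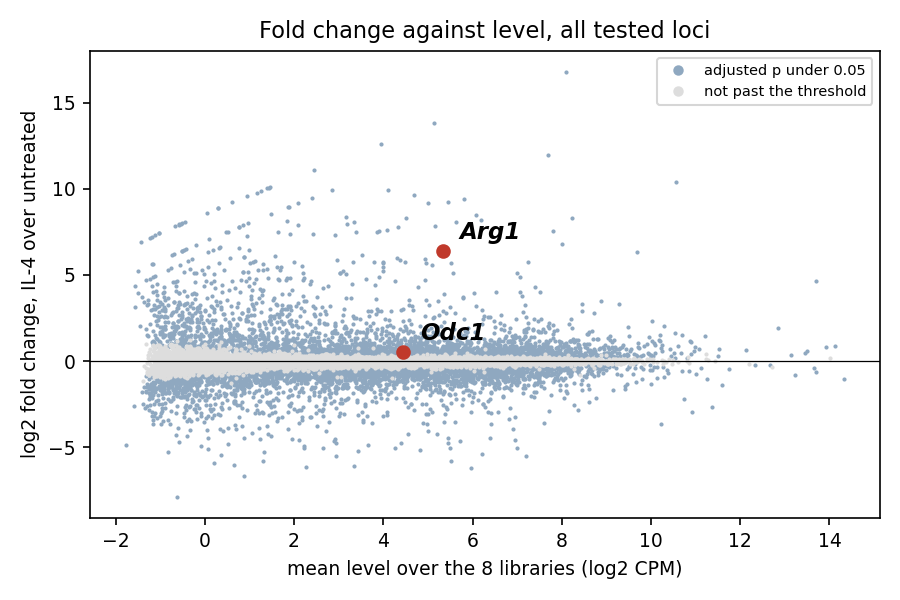
Log2 fold change (IL-4 over untreated) of the 13761 tested loci against their mean level in log2 CPM, with loci past the edgeR threshold in blue and the others in grey. Arg1 stands in the sparse upper region at 6.36, and Odc1 lies in the dense band of small changes at 0.50.

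The isoform values of Arg1 show a split that the locus count does not, described here without a test of isoform shares. The authors' FPKM values, fragments scaled to transcript length and library size, allow levels of transcripts of different length to be compared. The 8-exon reference transcript of 1477 nucleotides (nt) had 43.8, 32.0, 38.3 and 30.4 FPKM in IL-4 replicates 1 to 4. In untreated cells it had 0.0296 FPKM in replicate 2 and values under 0.001 FPKM, in effect 0, in replicates 1, 3 and 4. Reads of the reference form were thus assigned in a single untreated library. On the log2(FPKM + 0.1) scale the difference was 8.39 (SE 0.16, limma, adjusted p = 1.129e-08). Its size is set by the constant added to a group near 0: it was 5.19 with 1 added and 11.3 with 0.01 added, and the SE does not cover this. This transcript passed the filter of at least 1 FPKM in 4 libraries through its IL-4 values alone, so it had to differ, and with any IL-4 library left out it failed the filter and gave no value. For comparison, 19.8% of the 17500 isoforms kept were called higher with IL-4.

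The FPKM of untreated cells was assigned mostly to another isoform. This assembled transcript of 3239 nt starts where the reference starts, keeps its last intron and ends 1514 nt past the reference end. It had 0.187, 0.236, 0.134 and 0.0761 FPKM with IL-4, against 0.0860, 0.138, 0.141 and 0.170 FPKM in untreated cells, and the groups overlapped. With IL-4 the reference transcript made up 99.1% to 99.3% of the summed FPKM of the locus. In untreated cells its share was 17.6% in replicate 2 and close to 0 in the others. Of the 3470 exonic nt of the locus, 57.4% lie outside the reference transcript.

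The extended end of Arg1 stops 163 bases from the end of a protein-coding locus on the opposite strand (24589792 to 24633335), so the pair converges tail to tail. That neighbour had 47.1 ± 2.30 CPM with IL-4 and 53.5 ± 2.73 CPM untreated (SD, n = 4 each; log2 fold change -0.08, SE 0.06, edgeR, adjusted p = 0.3482). Its untreated level was therefore far above that of the Arg1 locus. The library guide named in the labels' protocol describes, in its standard form, a kit that does not mark strand, and the sources used here do not give the counter's strand setting. If the libraries were made in that form, reads of the 2 strands cannot be told apart. The part of the neighbour's reads in the untreated Arg1 counts was not tested. The 82.1-fold rise of the locus and its interval rest on those untreated counts.

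A further 3 assembled Arg1 isoforms begin 289, 295 and 399 nt upstream of the reference start. Their summed level was 0.143, 1.103e-05, 0.209 and 0.183 FPKM in IL-4 replicates 1 to 4, against at most 0.000905 FPKM in any untreated library. IL-4 replicate 2 was thus close to 0, while the other 3 treated libraries had them at a small fraction of the reference form. None of these isoforms passed the FPKM filter, and they were not tested.

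**Figure D3:**
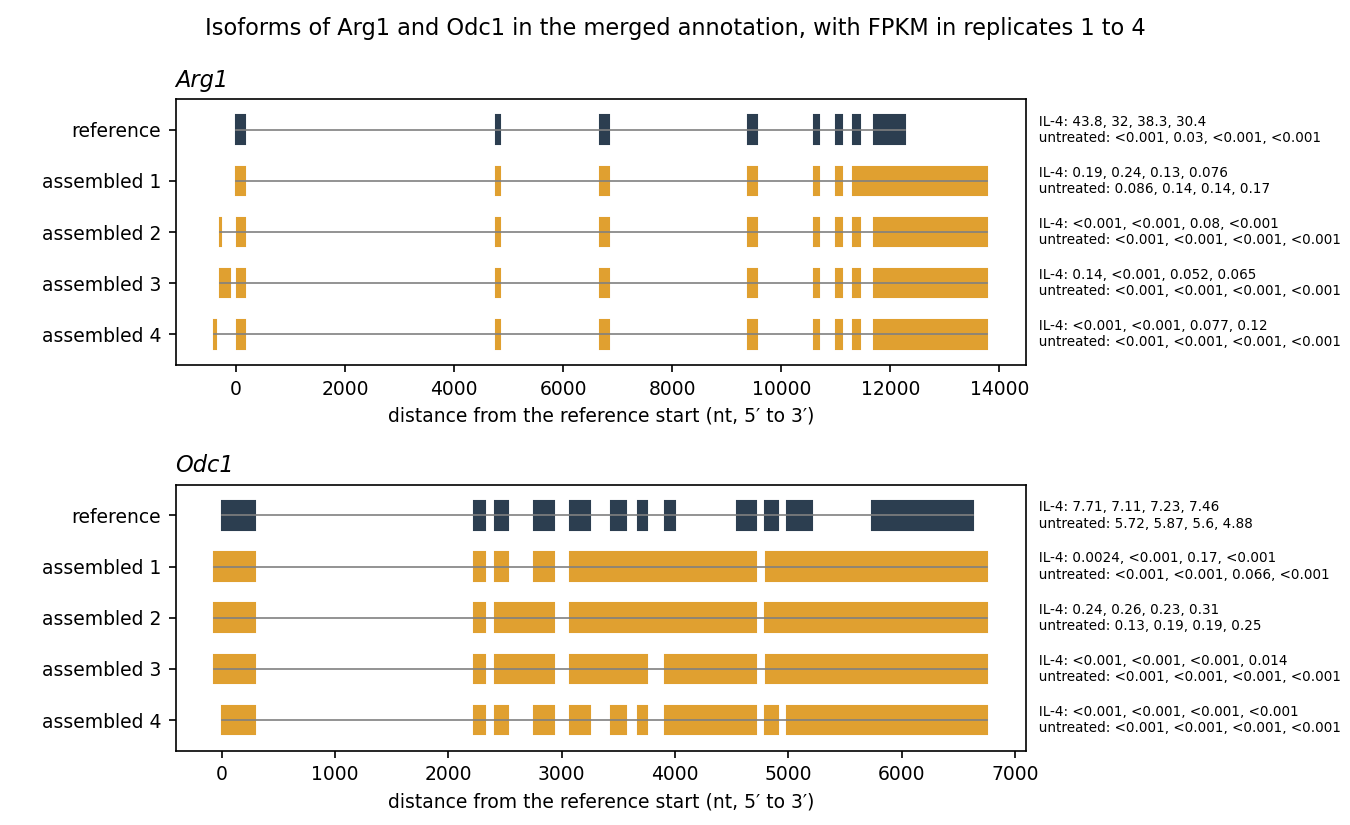
Exon models of all isoforms of Arg1 and Odc1 in the merged annotation (boxes are exons, lines are introns, reference form in dark blue and assembled forms in orange), by distance in nt from the reference start, with the FPKM of replicates 1 to 4 of each group at the right. For Arg1 the reference form carries 30.4 to 43.8 FPKM with IL-4, and the untreated signal sits on the form that runs 1514 nt further; for Odc1 the reference form dominates in both groups.

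Arg2, the mitochondrial arginase, lies on the plus strand of chromosome 12 (80231775 to 80257288, mm9) at locus XLOC_005436, with the single 8-exon transcript uc007nzv.2. It had 6, 14, 11 and 6 counts in IL-4 replicates 1 to 4, against 7, 9, 6 and 14 counts in untreated replicates. The ranges were the same in both groups, 6 to 14 counts. In FPKM it had 0.101, 0.198, 0.168 and 0.0760 with IL-4, against 0.157, 0.108, 0.0416 and 0.210 in untreated cells, again overlapping. Mean levels were 0.354 ± 0.148 CPM with IL-4 and 0.366 ± 0.149 CPM untreated (SD, n = 4 each), a difference smaller than the SD of either group (two-sided exact permutation test of the mean CPM, p = 0.9429).

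Arg2 fell below edgeR's expression filter. Fitted without a filter its log2 difference was 0.07 (SE 0.40; adjusted p = 0.9195, edgeR), with a 95% interval from a 0.579-fold to a 1.90-fold level. Of the 21080 loci with any count, 36.9% were called in that fit. That interval does not exclude a change of Arg2 within those bounds. Of its 1417 exonic nt, 45.5% also belong to exons of a protein-coding locus on the opposite strand (80250103 to 80273726). That locus had 132 ± 8.16 CPM with IL-4 and 117 ± 2.45 CPM untreated (SD, n = 4 each). It held 13851 counts with IL-4 and 11584 untreated in all, against 37 and 36 counts of Arg2. The sources used here do not say how reads in the shared part were assigned, so the absolute level of Arg2 is uncertain.

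Nos2 lies on the plus strand of chromosome 11 (78734361 to 78773626, mm9) at locus XLOC_003716, with the 27-exon transcript uc007kkc.1 and no shared exonic base. It had 1, 4, 4 and 5 counts in IL-4 replicates 1 to 4, against 0 counts in all 4 untreated libraries. The groups did not overlap, but the treated libraries were themselves close to 0. A group of untreated libraries with 0 counts still allows 3 counts, or 0.0305 CPM over the group, and the 14 IL-4 counts came to 0.134 CPM. The pooled IL-4 level was thus 4.39 times that untreated floor, and 3.20 to 5.42 times it when any single library was left out. The floor covers counting error of the untreated group only. Counting error of the 14 IL-4 reads and the spread among libraries are not in it, so 4.39 is not a lower limit.

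The filter removed Nos2, as it did Arg2. Without a filter Nos2 was called higher with IL-4 (edgeR, adjusted p = 0.005627), as were 19.3% of the 21080 loci with any count. The groups did not overlap, with IL-4 higher, at 14.5% of those loci. With no untreated count, Nos2 entered that fit through its IL-4 reads alone, so it could only come out higher. In level, the 14 reads spread over 3990 exonic nt gave 0.00616, 0.0173, 0.0270 and 0.0305 FPKM in IL-4 replicates, and the transcript was listed at 0 in untreated cells. Within a treated library the FPKM of Arg1 was 1006 to 1860 times that of Nos2 in IL-4 replicates 2 to 4, and 7169 times in replicate 1, where Nos2 had 1 read.

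Nos2, Arg1 and Odc1 each gave p = 0.02857 in the two-sided exact permutation test of mean CPM, which is the smallest p that 4 against 4 allows. With Arg2, 4 such tests were run, and adjusted over them (Benjamini-Hochberg) the exact permutation p of these 3 genes was 0.0381. That test exchanges labels over all 8 libraries. Exchanged only within same-numbered pairs, a form added after the data were seen, 4 pairs allow 16 arrangements and no p under 0.125, and the exact permutation p of these 3 genes was 0.125, so this form cannot reach 0.05.

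Odc1 lies on the plus strand of chromosome 12 (17551614 to 17558433, mm9) at locus XLOC_005267, reference transcript uc007ncv.1, with no exonic base shared with another locus. Processed copies of this gene are known in the mouse genome, and the sources used here do not say how reads that match several places were treated. Its RefSeq promoter is printed because Odc1 was the only 1 of 4 members matched in the table. It shows the 250 bases before the start, GRCm38.p6 chr12:17544623-17544872, plus strand, with GC boxes (GGGCGG on either strand) in capitals.

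Odc1 promoter: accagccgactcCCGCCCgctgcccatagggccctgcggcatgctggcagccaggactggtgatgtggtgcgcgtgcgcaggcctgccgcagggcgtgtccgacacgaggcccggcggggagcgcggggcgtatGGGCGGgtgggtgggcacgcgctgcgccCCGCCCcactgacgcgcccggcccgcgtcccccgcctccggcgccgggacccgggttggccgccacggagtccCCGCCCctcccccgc

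The window of 300 bases, which runs on to 50 bases after the start, was 78.0% G or C, against a median of 52.7% over the 32851 promoters of the table. It held 4 GC boxes, 1 on the plus and 3 on the minus strand, none overlapping, and 35.7% of all promoters held at least 1. It held 0 matches of the Myc E-box CACGTG, of TATAAA, and of the STAT-type palindromes TTCNNNNGAA and TTCNNNGAA on either strand. Those letters occurred in 7.15%, 13.6%, 6.95% and 8.30% of all promoters. Matches are descriptions of letters in this window.

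Odc1 had 658, 660, 612 and 644 counts in IL-4 replicates 1 to 4, against 474, 523, 438 and 409 counts in untreated replicates. As levels these were 25.5, 23.8, 25.5 and 23.8 CPM with IL-4, against 19.1, 19.6, 19.0 and 17.1 CPM in untreated cells. Every treated library lay above every untreated one, and both groups were tight. The means were 24.6 ± 0.992 CPM with IL-4 and 18.7 ± 1.11 CPM untreated (SD, n = 4 each).

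Odc1 rose by 0.50 on the log2 scale (SE 0.07; adjusted p = 9.881e-05, edgeR), a 1.42-fold rise with a 95% interval of 1.28 to 1.57. Of the 3524 loci that rose, 56.7% did so by more, which puts Odc1 at rank 1999, a little below the middle of them. That set holds only loci that passed the test. Among all 13761 tested loci Odc1 was at rank 2158 by log2 fold change. Tested against a change of 1.5-fold rather than no change, Odc1 did not pass (edgeR's glmTreat, adjusted p = 1). The ratio of the plain CPM means is smaller than the fitted fold because TMM factors were 0.943 to 0.980 in IL-4 libraries and 1.02 to 1.07 in untreated ones. With library totals alone, a setting chosen after the data were seen, the rise was 1.32-fold (edgeR, adjusted p = 0.0006995). That setting also moved the median log2 fold change of all tested loci to -0.13, against -0.02 with TMM factors, and gave 2715 loci higher and 4755 lower with IL-4, against 3524 higher and 3603 lower.

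The 12-exon reference transcript of Odc1, 2547 nt long, carried most of the signal in both groups. It had 7.71, 7.11, 7.23 and 7.46 FPKM with IL-4, against 5.72, 5.87, 5.60 and 4.88 FPKM in untreated cells (log2 difference 0.42 on the log2(FPKM + 0.1) scale, SE 0.08, limma, adjusted p = 0.002916). Its share of the summed FPKM of the locus was 94.7% to 97.0% with IL-4 and 95.2% to 97.7% untreated, so the shares overlapped. All 4 assembled forms keep introns of the reference. The most abundant of them keeps 7 of the 11 introns and had 0.238, 0.264, 0.233 and 0.305 FPKM with IL-4, against 0.135, 0.189, 0.192 and 0.246 FPKM untreated. These ranges overlapped, and the form stayed below the FPKM filter and was not tested.

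Set side by side per transcript length, the 4 genes fell in 1 order in the IL-4 libraries, with the limit that reads of the overlapping locus make the level of Arg2, and so its place, uncertain. The summed FPKM of the locus was 30.6 to 44.2 for Arg1, 7.38 to 7.95 for Odc1, 0.0760 to 0.198 for Arg2 and 0.00616 to 0.0305 for Nos2, and no neighbours in this order overlapped. In untreated cells Odc1 led with 5.13 to 6.06 FPKM. Arg1 (0.0869 to 0.170 FPKM) and Arg2 (0.0416 to 0.210 FPKM) overlapped below it, and Nos2 was listed at 0. Within a library, Arg1 was 3.94 to 5.56 times the level of Odc1 with IL-4 and 0.0148 to 0.0331 times its level in untreated cells.

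Arg1 made up 99.4% to 99.8% of the summed arginase FPKM of a library with IL-4 and 35.6% to 77.3% in untreated cells. Counting reference transcripts alone, the share was 99.4% to 99.8% with IL-4, against 21.5% in untreated replicate 2 and 0, rounded to 5 decimals, in the other untreated libraries. The untreated shares rest on 16 to 30 reads of Arg1 and 6 to 14 of Arg2 per library, and the depth behind a single FPKM value is unknown. The untreated FPKM of the Arg1 locus was mostly that of the extended isoform. The part of opposite-strand reads in the values of Arg1 and Arg2 was not tested, so the untreated shares are uncertain for this reason too.

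**Figure D4:**
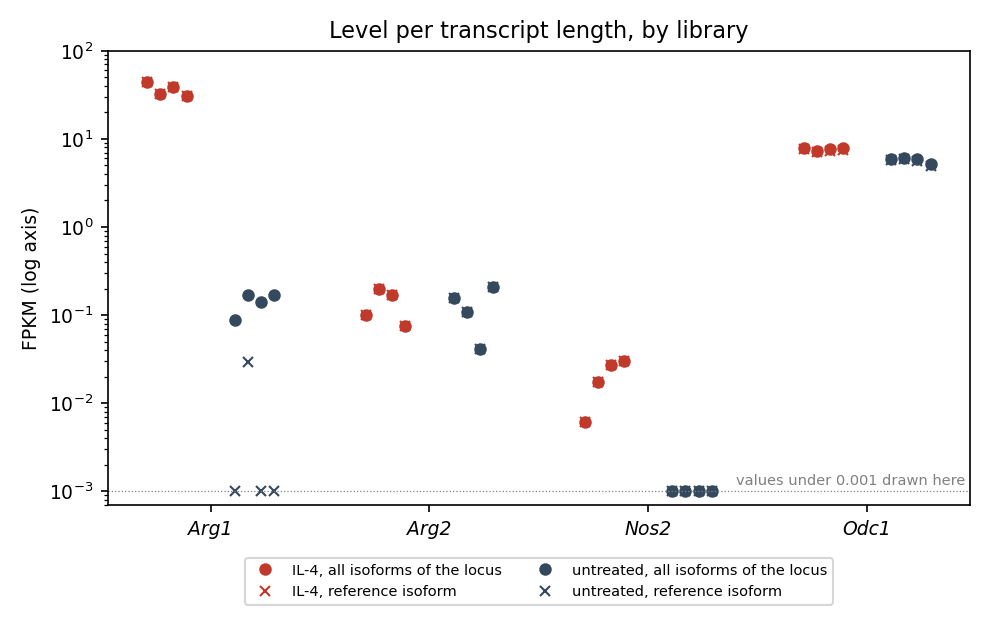
FPKM of the 4 genes in each library on a log axis, as the sum over all isoforms of the locus (circles) and for the reference isoform (crosses); values under 0.001 are drawn at the dotted line. With IL-4 the order is Arg1, Odc1, Arg2, Nos2 with no overlap, while in untreated cells the circles of Arg1 and Arg2 overlap and the crosses of Arg1 drop away.

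The surroundings of the 4 genes were read from the same fit. Within 100 kb of their ends lay 11 loci, all protein-coding and none with a name in the files: 2 near Arg1, 3 near Nos2, 6 near Arg2 and 0 near Odc1. Of the 9 that were tested, 1 rose, 3 fell and 5 did not pass, where 25.6% of all tested loci rose and 26.2% fell. The neighbour of Arg1 on its own strand had 0 counts in all libraries. Beside Nos2, a locus on the opposite strand whose near end lies 2854 bases past it (78776481 to 78798426) fell to 0.541 times its untreated level, at 11.1 ± 0.90 CPM with IL-4 and 22.2 ± 1.42 CPM untreated (SD, n = 4 each; edgeR, adjusted p = 1.226e-05). Upstream of Nos2, the locus at 78640090 to 78674612 fell less, at 7.36 ± 0.84 CPM with IL-4 and 11.2 ± 0.83 CPM untreated (edgeR, adjusted p = 0.002515). The locus at 78826935 to 78960062 did not pass (7.18 ± 0.91 CPM with IL-4 and 6.73 ± 0.32 CPM untreated; adjusted p = 0.1532, and 0.04899 without IL-4 replicate 4, edgeR).

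Beside Arg2, the overlapping locus on the other strand rose 1.21-fold (edgeR, adjusted p = 0.003642). A locus 75820 bases downstream (80333109 to 80397269) fell to 0.684 times its untreated level (edgeR, adjusted p = 0.007209). Of the others, 3 did not pass and 1 was removed by the filter, with 12 counts in IL-4 and 34 in untreated libraries. Against a change of 1.5-fold (glmTreat), only the locus 2854 bases from Nos2 still passed among these 4. The tail-to-tail neighbour of Arg1 was called lower when libraries were scaled by totals alone (edgeR, adjusted p = 0.03195).

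**Figure D5:**
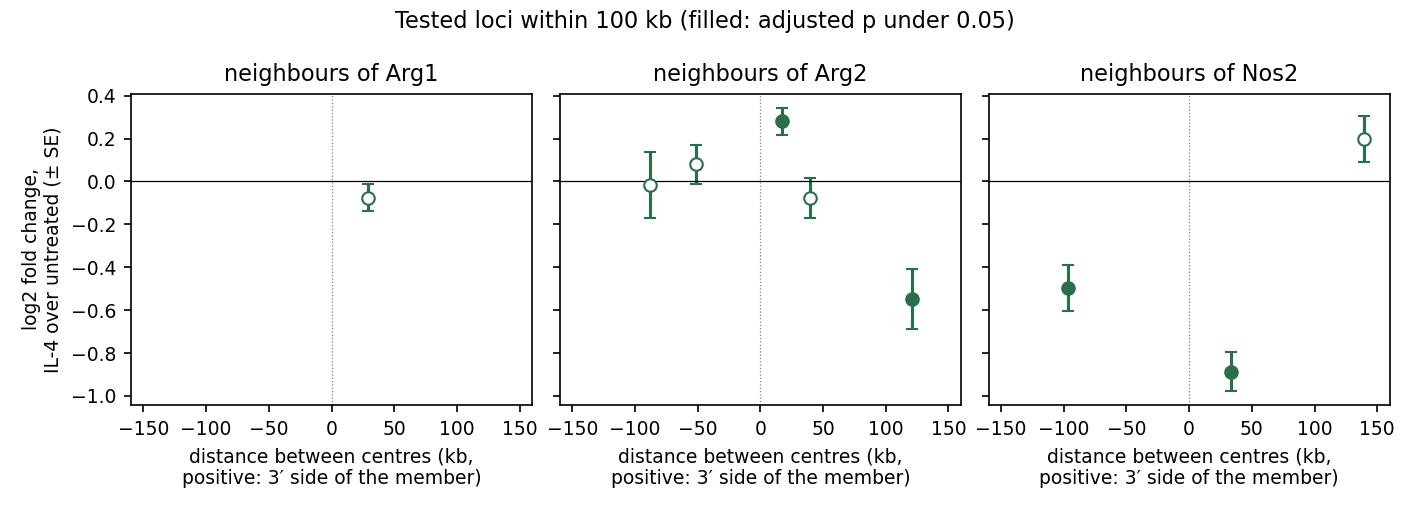
Log2 fold change with SE (IL-4 over untreated, edgeR) of the 9 tested loci within 100 kb of Arg1, Arg2 and Nos2, by the distance in kb between the centres of the loci; filled points have an adjusted p under 0.05. The loci around Nos2 that passed lie below 0, and the point of the Arg1 neighbour lies at -0.08.

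Loci whose levels followed those of Arg1 or Odc1 most closely were found by the Pearson correlation of log2 CPM over the 8 libraries, which share the split into treated and untreated cells. For Arg1 the closest were protein-coding loci on chromosome 6 (50060240 to 50155107, r = 0.999) and chromosome 1 (71632097 to 71699745, r = 0.998). The chromosome 6 locus had means of 303 CPM with IL-4 and 60.0 CPM untreated, and the chromosome 1 locus 578 CPM with IL-4 and 1.97 CPM untreated, so a near-perfect correlation spans log2 fold changes of 2.44 and 8.29. For Odc1 they were on chromosome 8 (55605787 to 55618331, r = 0.993) and chromosome 19 (5364640 to 5366645, r = 0.992), with log2 fold changes of 0.55 and 0.57. A correlation of at least 0.95 was reached by 992 loci for Arg1 and 466 for Odc1, so these matches are a description of a common pattern.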

How the data were processed

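RNA-seq was compared between 4 IL-4 and 4 untreated samples. The authors deposited raw read counts for 31020 merged loci, FPKM for 89208 transcripts and the merged annotation. Per the submitters' processing notes, the build was mm9, and the tools named are HTSeq, Cufflinks 2.1.1, TopHat2 2.0.9 and CASAVA 1.8.2. Their settings, strand handling included, are not stated. Columns were matched to samples by the code in the labels, and 0 were left over. The members, lists and tests were chosen with earlier results of these data known.

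Counts were fitted over all loci in edgeR 4.0.16 (R 4.3.3; TMM factors, default filter, quasi-likelihood test, group as the only term), and SEs were derived from the F value. FPKM were fitted in limma 3.58.1 on log2(FPKM + 0.1) for isoforms at 1 FPKM or more in 4 libraries. Alternatives included DESeq2 1.42.0. The planned test of isoform shares gave no value for the members, since at most 1 isoform of each passed that filter. Both procedures were run on simulated data. The simulated counts had a single setting of spread for all loci, which is simpler than these data. Named loci were the members, all loci within 100 kb of them and the 2 closest by correlation. Samples with the same number deviated together from their group means (r = 0.370, 0.140, 0.209 and 0.168 for numbers 1 to 4 over 13761 loci). By a rule of r over 0.1 for every number, the numbers were taken to pair the samples. The series design states no pairing, so the main fits kept group as the only term. The replicate number as a block was an alternative. By correlation the numbers did not single out every pair. IL-4 replicate 2 correlated more with untreated replicate 3 (r = 0.245). A further 2 unlike pairs also passed 0.1 (IL-4 3 with untreated 2, 0.122, and IL-4 4 with untreated 1, 0.117). Chromosome Y counts set both libraries numbered 4 apart from all others (5525 and 5808, against at most 7). They give no such link for the other numbers. Promoter sequence is from RefSeq (GRCm38.p6). Proteins were not analysed here.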

Additional observations from a re-analysis of the deposited data

Results flagged for a closer look

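In untreated cells the reference transcript of Arg1 had 0.0296 FPKM in replicate 2, and the other 3 libraries were under 0.001 FPKM. The gap between that library and the rest made up the whole range of the group, which is what marked it. By count the same library had 30 reads at the locus, against 16, 24 and 29 in the others, so it did not stand apart there. Chance marks about 1 in 20 groups of normally spread values, but that rate does not apply here: with 3 values in effect at 0, any value above 0 in the fourth is marked.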

How the results depend on the processing

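The direction of Arg1 and Odc1 held in every alternative that gave a value. That of Nos2 could not turn in any setting, as its untreated counts were all 0. For Arg1 counts the log2 fold change was 6.20 to 6.53 over 17 alternatives, each past the threshold, and 6.20 to 6.47 when single libraries were left out. For Odc1 it was 0.40 to 0.54, and the call was lost in 1 of 17, glmTreat against 1.5-fold (log2 fold change 0.50, adjusted p = 1). Against 1.5-fold, 1241 loci were called higher and 1226 lower, by construction of a stricter test. With the replicate block, Arg1 was at 6.35 and Odc1 at 0.50 (edgeR, adjusted p = 6.44e-05), and the block changed no edgeR or limma call of a member. For Nos2 without a filter the log2 fold change was 4.29 to 5.18 and the adjusted p 0.004224 to 0.03242 (edgeR or DESeq2), but fitted values against a group at 0 depend on the prior count. Arg2 was not called under any setting, and its sign turned when IL-4 replicate 2 (-0.16) or 3 (-0.066), or untreated replicate 1 (-0.038) or 3 (-0.082), was left out, within a range of -0.16 to 0.37; the alternatives without a filter were chosen after the data were seen. For the reference isoform of Arg1 the difference was 5.19 with a pseudocount of 1 and 11.3 with 0.01; with any single IL-4 library left out, or without both replicate 4 libraries, it failed the filter and gave no value. Without both replicate 4 libraries, 2268 isoforms were called higher, against 3472, as the filter asks for 4 of the remaining 6 libraries. Depth limits Nos2 and Arg2, with at most 14 counts in a library.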
